A study of Mus musculus with 6 samples.

Results

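Ribosome biogenesis and nucleolar genes were examined in Ter119-positive fetal liver cells of STAT5 knockout (STAT5 KO) and wild type mouse embryos at embryonic day 14.5. The group holds 54 genes, a list of names for ribosome assembly whose rule uses no values of these arrays but which was drawn up with earlier results of them known, and all 54 were measured among 18193 genes. The Ter119 antigen appears on erythroid cells as they mature, and in the embryo these cells are made mainly in the fetal liver. The 6 Affymetrix Mouse Genome 430 2.0 arrays carried RNA of 3 STAT5 KO and 3 wild type pools, each made of cells from 3 to 5 embryos of 1 genotype. The labels name neither the STAT5 allele, nor the strain, nor the sex of the embryos, and they name no treatment. Each gene is given by its brightest probe set, by mean log2 signal on all 6 arrays, and a signal is the linear intensity deposited by the authors. A difference is log2 signal in STAT5 KO minus log2 signal in wild type pools, and its standard error (SE) comes from limma with a trend of variance on signal, n = 3 arrays per group. Values of single arrays are listed in the order of replicates 1, 2 and 3.

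Ribosomes are assembled in the nucleolus, where RNA polymerase I transcribes the precursor of 18S, 5.8S and 28S ribosomal RNA. Small nucleolar RNPs (snoRNPs) guide 2′-O-methylation and pseudouridylation of the precursor, and the small subunit processome and the large subunit assembly factors cut, fold and export it with its ribosomal proteins. Erythroid precursors make many ribosomes while they divide and shut the process down as they mature, and loss of ribosome assembly factors is known to impair red cell production. MYC is a known activator of many of these genes.

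The arrays had median signals between 175.6 and 215.8 and 3′ to 5′ actin control ratios between 0.965 and 1.04. The same ratio for Gapdh was 0.752 on wild type replicate 2, which also had the highest median signal, and 0.895 to 1.01 on the other arrays. Background was read from 27 control probe sets for Bacillus subtilis RNA: their 95th percentile on the 6 arrays together was a signal of 162.5, called the control level. All 4 probe sets of Stat5a and Stat5b read lower on each STAT5 KO array than on each wild type array. Over all genes 80 passed an adjusted p of 0.05 (0.44%; limma, Benjamini-Hochberg), 44 higher and 36 lower in STAT5 KO pools, and the median difference was -0.085. With the median of each array set equal the split was 29 and 13.

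No member of the ribosome biogenesis group passed the adjusted threshold, but most of them read slightly higher in STAT5 KO pools. Of the 54 genes, 41 had a difference above 0 and 13 below, where 41.9% of all genes lay above 0. The median difference of the group was 0.15, against -0.085 over all genes, and single genes ran from -0.83 (Polr1a) to 1.0 (Rrp12). At an unadjusted p under 0.05 there were 5 members (9.26%), where the share of all genes was 11%. Of these, 4 were higher in STAT5 KO pools, Polr1c, Fbl, Nop56 and Tsr1, where 4.84% of all genes were, and 1 was lower, Noc2l, where 6.15% of all genes were. The smallest adjusted p of a member was 0.262 (Polr1c, limma). The groups did not overlap for 8 members (14.8%), where 16.9% of all genes had such groups. Every STAT5 KO array lay above every wild type array for 7 of them (13.0% of the group), where this held for 7.02% of all genes. For 1 member, Noc2l (1.85%), every STAT5 KO array lay below every wild type array, where this held for 9.85% of all genes. Among the 11767 genes whose mean exceeded the control level these shares were 9.30% and 10.4%, 45.05% lay above 0, and the median difference was -0.039. That set holds 52 of the 54 members, 40 of them above 0, and the members outside it are Rrp12 and Rrp9. In bulk RNA of this kind, fewer cells of a type and less RNA per cell cannot be told apart.

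**Figure D1:**
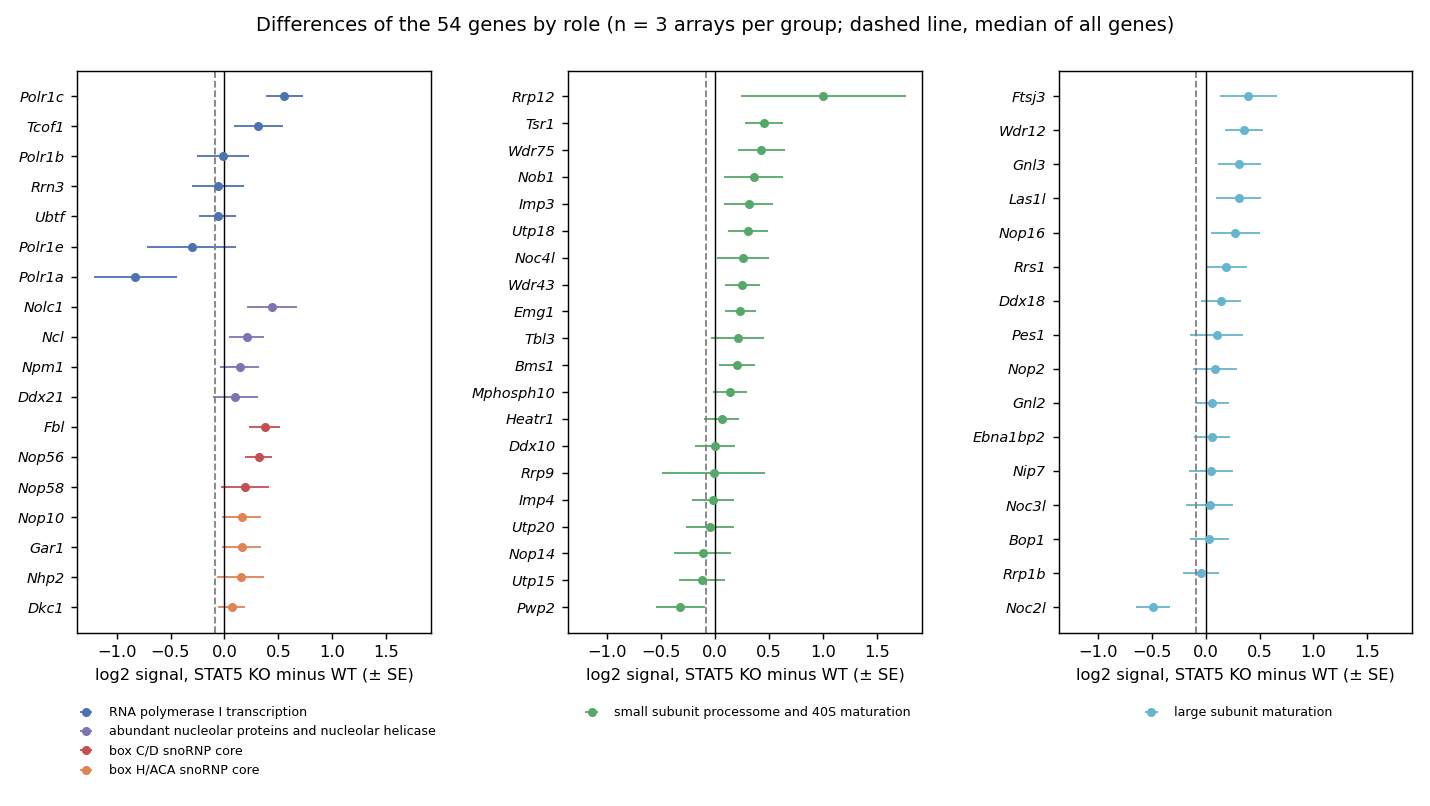
Difference in log2 signal, STAT5 KO minus wild type, of each of the 54 genes by role; points are the fitted differences, bars 1 SE, n = 3 arrays per group, and the dashed line is the median of all genes at -0.085. Most points lie right of 0, with Polr1a at -0.83 and Noc2l at -0.49 as the lowest and the dim gene Rrp12 at 1.0, with the widest bar, as the highest.

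**Figure D2:**
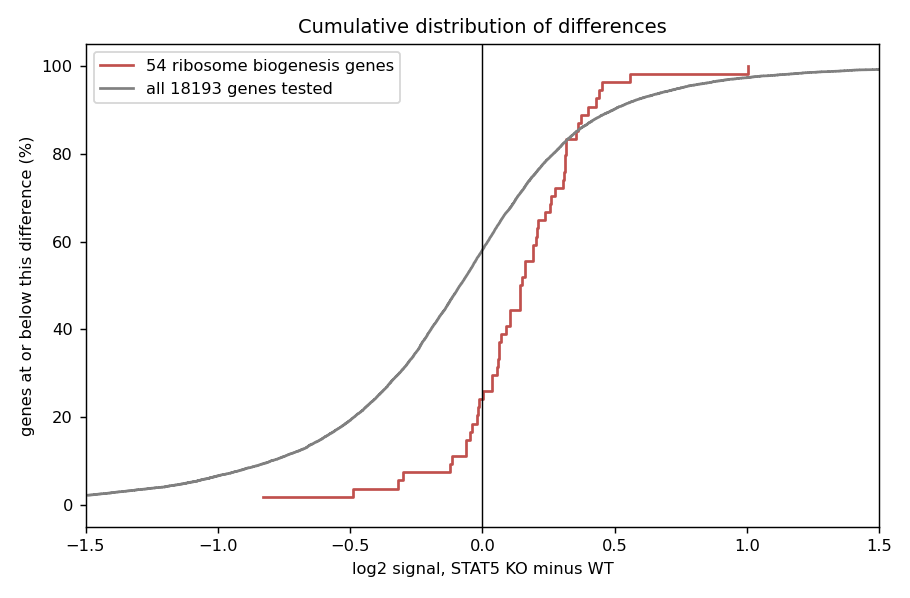
Cumulative share of genes, in percent, at or below each difference in log2 signal, STAT5 KO minus wild type, for the 54 genes and for all 18193 genes. The curve of the 54 genes crosses 0 with 13 genes to its left and is steeper around 0 than that of all genes.

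The genes of RNA polymerase I transcription showed no common direction: 2 of 7 were above 0, and their median was -0.063. Polr1c (probe set 1449648_s_at), a subunit shared by RNA polymerases I and III, had signals of 1242, 1059 and 914 in STAT5 KO pools, against 753, 738 and 679 in wild type pools. The groups did not overlap, and the difference was 0.56 (SE 0.17), a 1.47-fold ratio, with an unadjusted p of 0.00842 in limma's fit. A second probe set of Polr1c had signals of 1276, 966 and 1049 in STAT5 KO pools, against 763, 708 and 597 in wild type pools, a difference of 0.67, again without overlap. Tcof1, which encodes the nucleolar phosphoprotein treacle that supports ribosomal DNA transcription, had signals of 400.0, 461 and 498 in STAT5 KO pools, against 425, 354 and 318 in wild type pools. Its groups overlapped through wild type replicate 1, and the difference was 0.31 (SE 0.23). A second Tcof1 probe set had signals of 214, 169 and 191 in STAT5 KO pools, against 141, 165 and 123 in wild type pools, and there the wild type mean was below the control level.

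Polr1a, the largest subunit of RNA polymerase I, lay on the other side. Its brightest probe set had signals of 712, 589.9 and 220.0 in STAT5 KO pools, against 976, 744 and 710.5 in wild type pools. The low value is that of STAT5 KO replicate 3, and the difference of -0.83 (SE 0.39) was -0.31 without that array. Another probe set of Polr1a above the control level had signals of 793, 579.8 and 519 in STAT5 KO pools, against 586, 666 and 482 in wild type pools, a difference of 0.11, so the probe sets of this gene gave both directions. The remaining members with this role were Polr1b, the second-largest subunit, at -0.016, the initiation factor gene Rrn3 at -0.063, the ribosomal DNA binding factor gene Ubtf at -0.064 and Polr1e, a subunit gene close to the control level, at -0.30. Their groups all overlapped.

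Of the core proteins of box C/D snoRNPs, which carry out 2′-O-methylation, Fbl, Nop56 and Nop58 were measured and were above 0, with a median of 0.32, while Snu13, which encodes another core protein, was not analysed here. Fbl (1416684_at) encodes fibrillarin, the methyltransferase itself, and had signals of 4749, 4012 and 3819.6 in STAT5 KO pools, against 3627, 2824 and 3265 in wild type pools. Its difference was 0.37 (SE 0.14), a 1.3-fold ratio, without overlap. The other Fbl probe set had signals of 3718, 3065 and 3415 in STAT5 KO pools, against 3111, 1396 and 2265 in wild type pools; there the groups overlapped and the difference was 0.66. Nop56 (1426533_at), a scaffold of the particle, had signals of 2147, 1979.7 and 2053 in STAT5 KO pools, against 1618, 1632 and 1713 in wild type pools. The arrays of each group were close to each other, with levels of 11.01 ± 0.059 in STAT5 KO pools and 10.69 ± 0.044 in wild type pools (log2 signal, SD, n = 3 each). The difference was 0.32 (SE 0.12), and the second probe set gave 0.62, neither with overlap. Nop58, the paralog of Nop56 in the same particle, differed by 0.19 (SE 0.22) with overlapping groups. Unadjusted p-values of limma's fit were 0.0275 for Fbl and 0.0291 for Nop56, and the adjusted values 0.38 and 0.386.

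**Figure D3:**
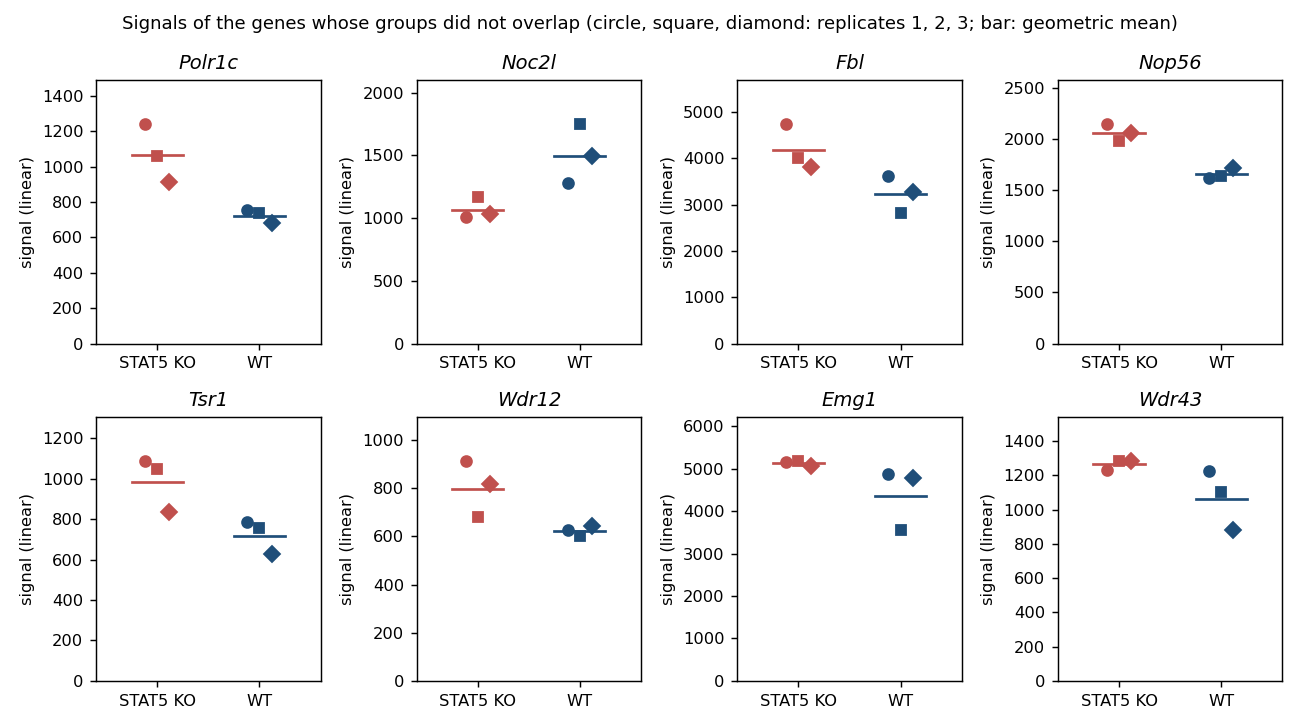
Linear signal on each array of the 8 genes whose groups did not overlap, STAT5 KO left of wild type; markers give replicates 1, 2 and 3 and the bar the geometric mean, and each axis starts at 0. STAT5 KO arrays lie above in 7 panels and below in that of Noc2l, and gaps between the groups are small for Emg1, Wdr43, Wdr12 and Fbl.

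Genes of box H/ACA snoRNPs, which convert uridine to pseudouridine, were above 0 by less. Dkc1, the pseudouridine synthase dyskerin, differed by 0.068, and its partners Gar1, Nhp2 and Nop10 by 0.16, 0.15 and 0.16. None had separate groups at the brightest probe set. A second probe set of Dkc1 had signals of 2187, 1777 and 2129.8 in STAT5 KO pools, against 1616, 1298 and 1692 in wild type pools, without overlap, and differed by 0.41. The remaining one differed by 0.14 with overlap.

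All 4 genes of abundant nucleolar proteins were above 0, with a median of 0.17, and their groups overlapped. Ncl, which encodes nucleolin, an RNA-binding protein of nascent ribosomal RNA, had signals of 12945, 10399 and 11791 in STAT5 KO pools, against 11841, 8227 and 10629 in wild type pools. Npm1, the histone chaperone and assembly factor nucleophosmin, had signals of 13367, 9913 and 9669 in STAT5 KO pools, against 12023, 9642 and 8234 in wild type pools. Knockout replicate 1 was the highest array for both genes, and the differences were 0.21 (SE 0.17) and 0.14 (SE 0.18). Single arrays set both values: that of Ncl was 0.056 without wild type replicate 2 and 0.32 without wild type replicate 1, and that of Npm1 was -0.0082 without STAT5 KO replicate 1 and 0.29 without wild type replicate 1. Nolc1, a chaperone of snoRNPs in the nucleolus, had signals of 1325, 881 and 1088 in STAT5 KO pools, against 1049.9, 599 and 806 in wild type pools. Its difference was 0.44 (SE 0.23) with overlap at the brightest probe set, while its other probe sets above the control level differed by 0.32 and 0.48 without overlap. The helicase gene Ddx21 differed by 0.10.

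Of 20 genes of the small subunit processome and later 40S maturation, 14 were above 0, with a median of 0.21, and groups did not overlap for Tsr1, Emg1 and Wdr43. Tsr1 (1455643_s_at), a factor of late 40S assembly, had signals of 1088, 1049.5 and 836 in STAT5 KO pools, against 785, 754 and 628 in wild type pools. The difference was 0.45 (SE 0.18), a 1.37-fold ratio with an unadjusted p of 0.0294 in limma's fit, and the second probe set gave 0.34 with overlap. Emg1 (1416393_at), a methyltransferase of 18S ribosomal RNA, had signals of 5159.8, 5183 and 5072 in STAT5 KO pools, against 4875, 3563 and 4789 in wild type pools. Wild type replicate 2 was the low array there, and the other wild type arrays lay close under those of the knockout, for a difference of 0.24 (SE 0.15). Wdr43 (1428390_at), a processome subunit needed for ribosomal DNA transcription in human cells, had signals of 1230.0, 1283 and 1284 in STAT5 KO pools, against 1225, 1106 and 883 in wild type pools. It differed by 0.25 (SE 0.16), and the second Wdr43 probe set, with overlap, by 0.12.

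Further processome genes had overlapping groups. Wdr75, another subunit of the complex that binds the precursor first, had signals of 700.5, 467 and 593 in STAT5 KO pools, against 473, 409.6 and 411 in wild type pools. One knockout array lay below the highest wild type array, and the difference was 0.43 (SE 0.22). A second probe set of Wdr75 differed by -0.03. Utp18 had signals of 814, 734 and 864 in STAT5 KO pools, against 675, 536 and 757 in wild type pools, a difference of 0.30 (SE 0.19). Imp3, a protein of the U3 snoRNP, had signals of 1459, 1032 and 1089 in STAT5 KO pools, against 1126, 678 and 1123 in wild type pools. Its low array was wild type replicate 2, and its difference 0.31 (SE 0.23). Noc4l had signals of 2721, 2185 and 2536 in STAT5 KO pools, against 2879, 1373 and 2227 in wild type pools, again with wild type replicate 2 lowest. The difference of 0.26 (SE 0.24) became -0.036 without that array. Other probe sets of the gene above the control level gave -0.19, 0.36 and 0.18, all with overlap. Bms1, a GTPase of the processome, had signals of 1018, 921 and 955 in STAT5 KO pools, against 930.0, 693 and 910.3 in wild type pools. It differed by 0.20 (SE 0.17), but its other probe set by -0.23.

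Nob1, the nuclease that makes the 3′ end of 18S ribosomal RNA, had signals of 453, 310.1 and 548 in STAT5 KO pools, against 387, 306 and 307 in wild type pools. The second knockout array lay within the wild type range, and the difference was 0.36 (SE 0.27). Pwp2, a scaffold of the processome, was the lowest gene with this role, and had signals of 571, 606 and 431 in STAT5 KO pools, against 854, 559 and 608 in wild type pools. Its difference was -0.32 (SE 0.23), with the groups overlapping. Rrp12, a factor of subunit export in yeast, had signals of 34.1, 67.7 and 103 in STAT5 KO pools, against 81.2, 22.9 and 15.9 in wild type pools. All these values are below the control level, so the fitted difference of 1.0 (SE 0.77) gives no fold. Rrp9, a protein of the U3 snoRNP, also lay below that level on all arrays. The other genes of the group were Tbl3 (0.21), Mphosph10 (0.14), Heatr1 (0.062), Ddx10 (0.0011), Imp4 (-0.019), Utp20 (-0.046), Nop14 (-0.11) and Utp15 (-0.12), all with overlap. At a second probe set of Utp15 every STAT5 KO array lay below every wild type array (-0.35).

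Promoters were searched for the E-box CACGTG, which MYC with MAX binds, and for AANATGGCG, the core of the motif of the transcription factor YY1, on both strands of a RefSeq window of 300 bases (build GRCm38.p6), 250 before and 50 after the annotated start. RefSeq windows matched 46 of the 54 genes. The E-box occurred in 8 of these 46 genes (17.4%; exact 95% binomial interval 7.82% to 31.4%), against 8.09% of 27025 genes with a window. The YY1 core occurred in 5 (10.9%, interval 3.62% to 23.6%), against 2.76% of genes. These 27025 genes were not limited to those measured on the arrays, nor matched to the members in signal or base composition. A match describes letters in this window and is no evidence of binding. Differences of the 8 genes with an E-box (Imp4, Nop2, Pes1, Rrn3, Tsr1, Utp18, Utp20 and Wdr43) ran from -0.063 to 0.45 around a median of 0.096, so genes with the motif lay among the others. Those of the 5 genes with the YY1 core (Emg1, Ftsj3, Imp4, Nob1 and Utp20) ran from -0.046 to 0.40. The motif could be set beside array values for 6 of the genes given here in full, and their 30 bases around it follow on the strand of the gene, with the E-box or the YY1 core (on either strand) in capitals. The E-box lies at positions -20 to -15 of Utp18, 18 to 23 of Wdr43 and 25 to 30 of Tsr1, counted from the start as 1, and the YY1 core at -112 to -104 of Ftsj3, 8 to 16 of Nob1 and 23 to 31 of Emg1.
Utp18: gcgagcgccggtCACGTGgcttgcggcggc
Wdr43: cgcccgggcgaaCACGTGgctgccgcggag
Tsr1: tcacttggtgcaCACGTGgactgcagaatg
Ftsj3: gcccatcaagCGCCATCTTccctctctcgg
Nob1: cttgacagccAACATGGCGccggtggagca
Emg1: gtacgggcatCGCCATTTTcgagcgccctc
These stretches lie at chr11:93885769-93885798 (minus strand), chr17:71616220-71616249 (plus strand), chr11:74898092-74898121 (plus strand), chr11:106256177-106256206 (minus strand), chr8:107425012-107425041 (minus strand) and chr6:124712137-124712166 (minus strand), in the order of the lines.

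Among 16 genes of large subunit maturation, 14 were above 0, with a median of 0.096. Wdr12 (1448646_at), which forms the PeBoW complex with Pes1 and Bop1, had signals of 913, 681 and 818 in STAT5 KO pools, against 628, 602 and 645 in wild type pools. The groups did not overlap, with a difference of 0.35 (SE 0.18), while Pes1 and Bop1 differed by 0.10 and 0.035 with overlap. Noc2l (1436136_at), which in yeast accompanies the precursor of the large subunit on its way out of the nucleolus, had signals of 1009.6, 1167 and 1032 in STAT5 KO pools, against 1283, 1753 and 1497 in wild type pools. The difference was -0.49 (SE 0.16), a 0.712-fold ratio, with an unadjusted p of 0.0125 and an adjusted p of 0.295 in limma's fit. A dimmer probe set of Noc2l had signals of 567, 543 and 467 in STAT5 KO pools, against 525, 428 and 298 in wild type pools. There the groups overlapped and the difference was 0.37, so the direction of this gene rests on which probe set is read.

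Gnl3, the nucleolar GTPase nucleostemin of proliferating cells, had signals of 2397, 1736 and 1791 in STAT5 KO pools, against 2044, 1521 and 1247 in wild type pools, a difference of 0.31 (SE 0.20). Ftsj3, a methyltransferase of the precursor, had signals of 538, 356 and 501 in STAT5 KO pools, against 439, 317 and 302 in wild type pools, a difference of 0.40 (SE 0.26). In both genes wild type replicate 1 lay within the range of the knockout pools. Las1l, the nuclease that cuts the second internal spacer, had signals of 727, 623 and 716 in STAT5 KO pools, against 703, 518 and 471 in wild type pools. Nop16 had signals of 878, 694 and 755 in STAT5 KO pools, against 877, 595 and 497 in wild type pools. Their differences of 0.31 (SE 0.21) and 0.28 (SE 0.23) again came with overlap, through wild type replicate 1. The other members of the group lay between -0.038 (Rrp1b) and 0.19 (Rrs1), with Ddx18 at 0.14, Nop2 at 0.09, Gnl2 at 0.061, Ebna1bp2 at 0.058, Nip7 at 0.053 and Noc3l at 0.037. Further probe sets of these genes above the control level gave 0.31 for Noc3l, without overlap. With overlap they gave 0.46 for Rrs1, 0.29 for Ddx18, 0.20 and 0.093 for Gnl2 and 0.24 and -0.12 for Rrp1b. Those of Ebna1bp2 and Nip7 gave -0.22 and -0.020, also with overlap.

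Further probe sets gave a measure of the same transcripts that the choice of the brightest one did not use. Of 58 such probe sets of the members, 41 lay above the control level, and 29 of the 41 were above 0, with a median of 0.18. They were read from the same arrays and pools, so they are no separate samples. The same share over further probe sets of all genes is not given here. Direction matched that of the brightest probe set for 30 and opposed it for 11, in 11 genes. Most differences of both kinds of probe set lay above 0, so part of this match needs no agreement within a gene. These were Bms1, Ddx21, Ebna1bp2, Heatr1, Mphosph10, Nip7, Noc2l, Noc4l, Polr1a, Rrp1b and Wdr75. At the second probe set of Heatr1, a processome subunit gene, the difference was -0.95, with signals of 338, 64.5 and 198 in STAT5 KO pools, against 316, 487 and 201 in wild type pools. The low value of knockout replicate 2 there is under the control level.

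**Figure D4:**
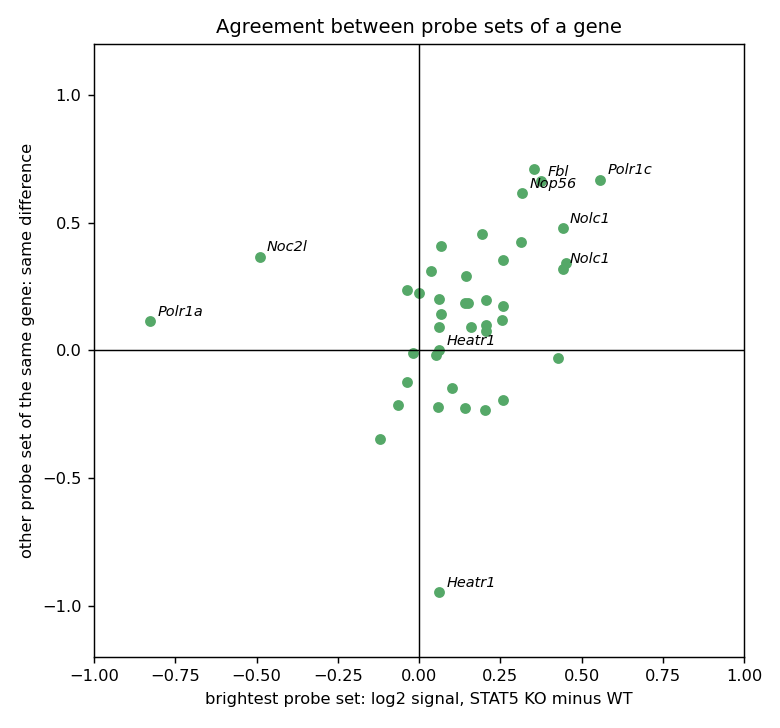
Difference in log2 signal, STAT5 KO minus wild type, of the 41 other probe sets (vertical axis) against that of the brightest probe set of the same gene (horizontal axis). Each point is 1 probe set with a mean above the control level in at least 1 group. Polr1c, Fbl, Nop56 and Nolc1 lie right of 0 and above it, and Polr1a and Noc2l are left of 0 and above it.

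The shift of the group was uneven across arrays, and the arrays of the genotypes overlapped. The median over the 54 genes of log2 signal minus the wild type mean was 0.28, 0.0055 and 0.18 in STAT5 KO replicates 1, 2 and 3, against 0.19, -0.087 and -0.10 in wild type replicates 1, 2 and 3. Wild type replicate 1 thus lay above knockout replicates 2 and 3. The pooled SD of these array medians within genotypes was 0.15, where the group's median difference was 0.15. After subtraction of the median of all genes on the same array, the values were 0.33, 0.046 and 0.25 in STAT5 KO replicates 1, 2 and 3, against 0.17, -0.17 and -0.035 in wild type replicates 1, 2 and 3. Their means differed by 0.22, with a pooled SD of 0.16, and wild type replicate 1 still lay above knockout replicate 2. Within each replicate number the knockout value was the higher one, before and after this subtraction, though the labels do not name pairs. STAT5 KO replicate 1 was the highest of all 6 arrays for 26 of the 54 genes, where it was the highest for 12.8% of all genes. Wild type replicates 2 and 3 were the lowest of all arrays for 21 and 18, where they were so for 17.0% and 18.1% of all genes. The part of the low Gapdh ratio of wild type replicate 2 in this was not tested. Box C/D snoRNP genes were the only role whose 3 knockout medians (0.38, 0.26 and 0.31) exceeded all wild type medians (0.17, -0.019 and 0.019). This role holds only 3 genes, and each of these medians is the value of Fbl or Nop56, so it restates their separate groups.

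Leaving out 1 array moved the median difference of the group between 0.058, without wild type replicate 2, and 0.28, without wild type replicate 1. It was 0.074 without STAT5 KO replicate 1, when 32 of the 54 genes lay above 0, and 0.23 without STAT5 KO replicate 2. After array weights it was 0.094. With each array's median set equal it was 0.26, with 48 of 54 above 0, where that of all genes was 0.028, and after quantile normalization 0.14, with 44 above 0, where that of all genes was -0.035. Relative to all genes the group's median lay 0.23 higher on the deposited scale, which median centring cannot change, and 0.17 higher after quantile normalization. With the dimmest 50% of probe sets left out it lay 0.19 higher, for 51 members. On the deposited scale with all probe sets kept, it lay 0.11 higher without wild type replicate 2 and 0.36 higher without wild type replicate 1.

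**Figure D5:**
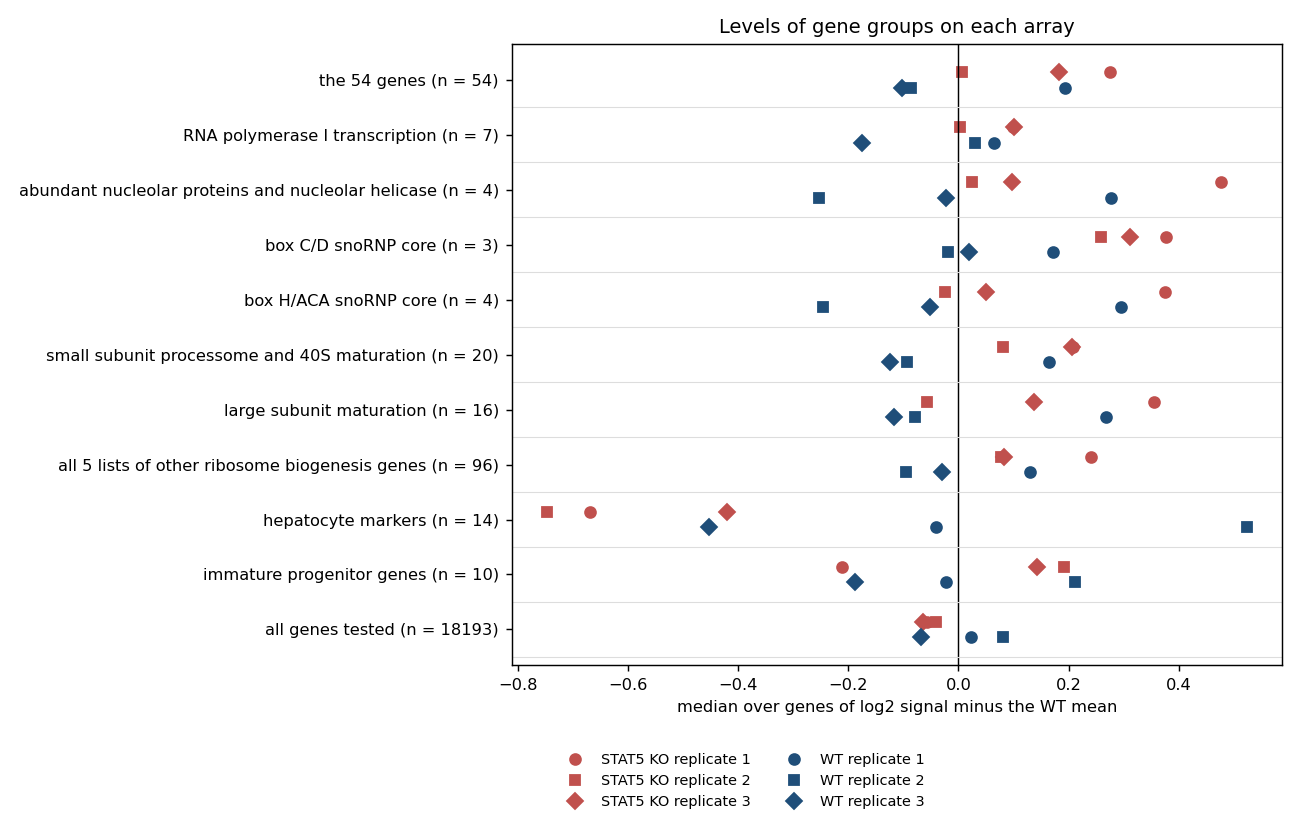
Median over the genes of each group of log2 signal minus the wild type mean, on each array, with STAT5 KO arrays above wild type arrays in each row and n the number of genes. For the 54 genes wild type replicate 1 (0.19) lies among the knockout arrays, box C/D snoRNP genes separate the groups, and hepatocyte markers range from -0.75 in STAT5 KO replicate 2 to 0.53 in wild type replicate 2.

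Other genes of the same pathway, 96 measured of 100 in 5 lists, ran from -2.25 (Dhx37, a fitted value with the STAT5 KO signals below the control level) to 1.16 (Wdr36). None passed the adjusted threshold, 69 were above 0 and 27 below, and their median was 0.12. At an unadjusted p under 0.05 there were 12 higher and 0 lower, where the shares of all genes were 4.84% and 6.15%. Groups did not overlap for 15 higher and 2 lower genes, where the shares of all genes were 7.02% and 9.85%. In the list for the large subunit 26 of 34 were above 0 and groups did not overlap for 7 higher genes and 1 lower. Ppan, a factor of early large subunit assembly, had signals of 774, 606 and 641 in STAT5 KO pools, against 304, 276 and 350.0 in wild type pools. The difference was 1.12 (SE 0.21), a 2.17-fold ratio (adjusted p = 0.066, limma), larger than that of any of the 54 genes above the control level. Nsa2, an assembly factor of the large subunit, had signals of 2343, 1950.0 and 2280.3 in STAT5 KO pools, against 1279.8, 957 and 1535 in wild type pools, a difference of 0.82 (SE 0.18) with an adjusted p of 0.121 in the same fit. Tex10 and the helicase gene Ddx24 differed by 0.59 and 0.55, both without overlap.

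In the RNA exosome, which trims ribosomal RNA precursors, 10 of 13 genes were above 0, with Exosc8 at 0.57 (SE 0.18), Exosc5 at 0.48 (SE 0.18) and Exosc7 at 0.32 (SE 0.14), each without overlap, and Mphosph6 at 0.87 with it. Of the other small subunit genes 20 of 29 were above 0, with a median of 0.12. Those with the smallest p were Dhx37, which was below the control level in STAT5 KO pools (5.4, 118 and 92.3 in STAT5 KO pools, against 192, 203 and 163 in wild type pools), Wdr36 (1.16, with overlap), Dcaf13 (0.29) and Nol6 (-0.37). Among snoRNP assembly genes 5 of 8 were above 0, with Ruvbl1 at 0.50, Naf1 at 0.74, Znhit3 at 0.28 and Znhit6 at -0.27. For other RNA polymerase I genes it was 8 of 12, with Taf1d at 0.43 and Twistnb, another polymerase subunit gene, at 0.23, and the rest nearer to 0 or dim, among them Taf1c at -0.44 and Polr2h at 0.14.

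Myc had signals of 1218, 989 and 1003 in STAT5 KO pools, against 637, 428 and 447 in wild type pools. Every STAT5 KO array lay above every wild type array, and the difference was 1.10 (SE 0.20), a 2.15-fold ratio with an adjusted p of 0.0613 in limma's fit, which misses the threshold. Of the 10 genes of the MYC and MAX network 4 were above 0. Genes with the smallest p after Myc were Mxi1 (-0.23), Mga (0.40) and Mxd1 (-0.23). Whether Myc has a part in the levels of the ribosome biogenesis genes was not tested.

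Markers of other cells and stages differed among the same pools. Of 14 hepatocyte markers all were below 0 (median -0.69), with summed signals of 143513 to 157988 in STAT5 KO pools, against 167166 to 284301 in wild type pools, and no marker was near 0 (lowest signal 474). The largest sum was that of wild type replicate 2, in which 21 of the ribosome biogenesis genes were lowest, while wild type replicate 3, in which 18 were lowest, had the smallest sum of the 3 wild type pools. Ahsg, Fgg, Fga and Apob differed by -1.11, -1.07, -1.09 and -1.09. Endothelial markers (8 of 10 below 0) summed to 2496 to 3058 in STAT5 KO pools and 2448 to 4862 in wild type pools. Lyve1 had signals of 139, 77 and 128 in STAT5 KO pools, against 278, 993 and 1024 in wild type pools. Tie1 and Tek were below the control level on average in both groups, and Stab2 differed by -0.49.

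Macrophage markers (6 of 10 above 0) summed to 23269 to 31612 in STAT5 KO pools and 17708 to 28946 in wild type pools, with Vcam1 at -0.68 and Marco at 0.75. Megakaryocyte markers (2 of 6 above 0) summed to 3818 to 5032 in STAT5 KO pools and 3682 to 13652 in wild type pools, and Ppbp had signals of 206, 283 and 202 in STAT5 KO pools, against 282, 616 and 3806 in wild type pools, the highest by far in wild type replicate 3. Wild type replicate 1, which had the highest levels of ribosome biogenesis genes among wild type pools, had the lowest sums of all arrays for endothelial, macrophage and megakaryocyte markers. Its hepatocyte sum of 210304 lay above those of wild type replicate 3 and of every STAT5 KO pool. STAT5 KO replicate 3, where the median of the ribosome biogenesis genes was 0.18, had the highest macrophage sum of all arrays (31612).

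Erythroid markers were bright in all pools except for the Hba-a1 probe set, with summed signals of 163036 to 210867 in STAT5 KO pools and 200862 to 212881 in wild type pools; 1 of 8 was above 0, and Epb42, Tfrc and Epor differed by -0.39, -0.38 and 0.28. Among 10 genes of immature progenitors 4 were above 0 and 6 below, with a median of -0.039. Groups did not overlap for 4 higher genes and 1 lower, where the shares of all genes were 7.02% and 9.85%. The transcription factor gene Myb differed by 1.65 (SE 0.31), Cd44 by 0.80 (SE 0.19) and the stem cell factor receptor gene Kit by 1.16 (SE 0.36). Each of them was higher on every STAT5 KO array than on every wild type array. Hmga2 differed by -0.74 the other way, also without overlap, and Flt3 by -1.42 and Meis1 by -0.56 with overlap. None of the 10 genes passed the adjusted threshold of limma. No marker of these lists was at 0 on any array. The part of these cell types and stages in the levels of the ribosome biogenesis genes was not tested.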

How the data were processed

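RNA of 6 pools of Ter119-positive cells was hybridised to 1 Affymetrix Mouse Genome 430 2.0 array each, and groups and replicate numbers were taken from the sample titles, which call the pools biological repeats. The deposited table holds an intensity on a linear scale for each of 45101 probe sets. RMA and Partek are named, without versions, per the submitters' processing notes. The deposited intensities are linear and not quantile normalized, and their mean is 500 on every array once the lowest and highest 2% of values are trimmed. The sources used here do not say how the authors made that scaling. It can shift all differences together, so quantile normalization and median centring were tried.

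Of the probe sets 34945 carry 1 gene symbol in the platform annotation, and the brightest one per gene gave 18193 genes. Log2 of the intensity was fitted in limma 3.58.1 (R 4.3.3; lmFit, eBayes with a mean-variance trend), with Benjamini-Hochberg adjustment over all genes and a threshold of 0.05. With 3 pools per group the number of arrays limits the precision, and an exact permutation test of a single gene cannot go below p = 0.1, so none is given. The script was tested on simulated data. Array values were given for the 24 members with the smallest p and for Ncl, Npm1, Fbl and Polr1a, and up to 4 genes of each further list were named by p. Members, lists and the use of the trend were chosen with earlier results of these data known. Same-numbered pools had correlations of deviations of 0.11, 0.11 and 0.099 over 11767 genes above the control level. For pools of unlike number they ran from -0.098 to 0.001. Over all 18193 genes the values were weaker, 0.023, 0.041 and 0.037 for the same number and -0.053 to 0.019 for unlike numbers. The titles name no pairs, so the main fit did not use the numbers, and a fit with the number as a block was run as an alternative. Alternatives were no trend, robust estimation, the methods' t-test, both normalizations, leaving out the dimmest 50% of probe sets, array weights, the replicate block, leaving out each array, adding 32 to the signal, the mean of all probe sets, and leaving out probe sets that share sequence between transcripts by name (_x_at, _s_at, _a_at).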

Additional observations from a re-analysis of the deposited data

How the results depend on the processing

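No member passed the adjusted threshold of limma under any of the 17 alternatives, the methods' t-test among them, where the smallest adjusted p of a member ran from 0.186 with array weights to 0.534 without the trend. The median difference of the group stayed above 0 in all of them, from 0.058 to 0.28 when 1 array was left out. The count of all genes past the threshold, 80, was 8 without the trend (2 higher and 6 lower), 4 by the methods' t-test, 42 after median centring, 151 with array weights, 36 with the mean of all probe sets and 43 without probe sets of shared sequence. With 1 array left out it ran from 9 (without STAT5 KO replicate 1) to 74 (without wild type replicate 3), so it depended on which array was left out. It was 33 and 10 without STAT5 KO replicates 2 and 3, and 22 and 29 without wild type replicates 1 and 2. All these counts were below 80. A fit with fewer arrays also has less power, and the weight of single arrays cannot be told apart from that loss here.

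Members at an unadjusted p under 0.05, 5 of 54 in the main fit, numbered 2 without the trend and 8 after median centring. The shares of all genes were then 8.9% and 9.81%. With 1 array left out they ran from 3 (without STAT5 KO replicate 1) to 8 (without STAT5 KO replicate 2 or wild type replicate 1). There the shares of all genes were 8.87% without STAT5 KO replicate 1, 9.93% without STAT5 KO replicate 2 and 8.87% without wild type replicate 1. Members with separate groups, 8 in all, numbered from 9 (without STAT5 KO replicate 3) to 23 (without wild type replicate 1). The shares of all genes were then 25.3% and 25.7%, since fewer arrays separate more easily. With the replicate number as a block, 75 genes and no member passed. An unadjusted p under 0.05 was reached by 8 of the 54 members, where the share of all genes was 12.3%. The SE fell under the block for most members followed, as from 0.20 to 0.13 for Gnl3 and from 0.18 to 0.12 for Npm1. It rose for Tcof1 (0.23 to 0.24) and Rrp12 (0.77 to 0.85). Each pool correlated best with the pool of its own number, which is a hint from the data and not from the design, and no other count moved by over 1.5 times under the block.

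Alternatives were run for the 25 members given in full and not for the other 29. Of their 421 values 415 kept direction and 6 reversed, and none was past the threshold in any fit. Sizes were less stable: with 1 array left out, 16 of the 25 differences moved by over 1.5 times, and those of Fbl, Ftsj3, Noc2l, Nop56, Polr1c, Tcof1, Tsr1, Wdr12 and Wdr75 did not. Without wild type replicate 2, Imp3 was 0.068, Bms1 0.067, Emg1 0.089 and Nolc1 0.23, and without wild type replicate 3, Nop16 was 0.096, Gnl3 0.15 and Wdr43 0.12. With 1 array left out, Npm1 ran from -0.0082 (without STAT5 KO replicate 1) to 0.29 and Noc4l from -0.036 (without wild type replicate 2) to 0.50, both highest without wild type replicate 1. Bms1 was -0.016 as the mean of its probe sets. Without probe sets of shared sequence, which left 49 members, Polr1a was 0.11, Wdr75 -0.030 and Bms1 -0.23. The cause was not tested, except that the last 4 values come from other or averaged probe sets. Signals near the control level limit Rrp12, Rrp9 and Polr1e.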

Other observations

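The arrays also carry control probe sets for 18S ribosomal RNA, the product of the pathway described here. That for the 3′ part had signals of 409.6, 498 and 626 in STAT5 KO pools, against 790.0, 791 and 626 in wild type pools. The one for the 5′ part had 185, 281 and 677 in STAT5 KO pools, against 238, 326 and 344 in wild type pools. The one for the middle part had 89.5, 70.2 and 695.5 in STAT5 KO pools, against 165, 250.6 and 262 in wild type pools. STAT5 KO replicate 3 stood apart at the middle and 5′ probe sets. The labelling starts from polyadenylated RNA in the usual protocol for these arrays, so these signals are not a measure of how much ribosomal RNA the cells held.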
